A study of Mus musculus and Homo sapiens with 81 samples.

Results

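The genes of sterol synthesis and its control described here are Dhcr7, Insig1, Hmgcs1, Sqle, Fdft1, Idi1, Lss and Srebf2, with the upper-case symbols in human cells. They were picked by symbol, 8 of 23336 genes in the mouse count table and 8 of 23227 in each of 4 human tables, and all passed the filter on low counts in every line. The choice was made with measured values of these comparisons known, so their levels, fold changes and calls are given as a description and support nothing by themselves. Which values decided the choice is not recorded, so no inside and outside of a threshold can be given. Tests are given for the other genes of the pathway, which were listed by function, although with earlier results of these data known as well.

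The libraries came from cells infected with lentivirus carrying 1 guide per genotype. B16 mouse melanoma cells carried the guide Ptpn2sg3 (labelled Ptpn2ko, called Ptpn2-null) or the non-targeting guide Bro3 (control). They were given IFNb at 1000 U/mL, IFNg at 100 ng/mL, TNFa at 10 ng/mL, a pair of these (IFNbIFNg, IFNbTNFa, IFNgTNFa), or vehicle (PBS with BSA), for 48 h, in 14 groups of 3 libraries. The human lines were MelJuSo and A375, both melanoma, HT29 from colon cancer and A549 from lung cancer. They carried either a guide that bears the mouse guide's label, Ptpn2sg3, or Bro4, a non-targeting one, and received IFNg at 100 ng/mL or vehicle for the same 48 h. Groups held 3 libraries in A375 and MelJuSo and 2 in A549 and HT29, and the A375 control vehicle group held replicates 2 and 3 only. All cells were grown in DMEM with serum. Ptpn2 encodes a phosphatase that acts on Janus kinases and STAT factors downstream of interferon receptors. Nothing in the labels says that replicates were separate cultures, so p-values may measure technical spread only. With 1 guide per genotype, loss of Ptpn2 and any other difference between the 2 cell populations cannot be told apart.

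Cholesterol is built from acetyl-CoA through mevalonate, isoprenoids, squalene and lanosterol. When sterol in the endoplasmic reticulum is low, the SCAP protein carries the precursor of SREBP-2, the product of Srebf2, to the Golgi, where proteases release a fragment that turns on the genes of the pathway. Insig1 encodes an endoplasmic reticulum protein that holds SCAP back when sterol is plentiful, and is itself a target of SREBP. Hmgcs1 makes a precursor of mevalonate, Idi1 interconverts the isoprenoid building blocks, Fdft1 joins farnesyl units to squalene, Sqle oxidises squalene, Lss closes the ring to lanosterol, and Dhcr7 carries out a last reduction to cholesterol.

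Promoter sequence was at hand for mouse only, from RefSeq on GRCm38.p6, the assembly of mm10. Of the 8 genes, 6 had an entry (Dhcr7 had 3), which spans 250 bases before to 50 after a start; Sqle and Fdft1 had none. Printed here are 3 promoters: those of Srebf2, which encodes the factor, of Insig1, which had the largest fold change in control cells under IFNgTNFa, and of Hmgcs1, the only one with a TCACNCCAC match. Capitals mark matches to TCACNCCAC, a core of the sterol regulatory element, and to CCAAT, the NF-Y motif, on either strand (ATTGG where CCAAT lies on the other strand).
Srebf2 (chr15:82147019-82147318, plus strand): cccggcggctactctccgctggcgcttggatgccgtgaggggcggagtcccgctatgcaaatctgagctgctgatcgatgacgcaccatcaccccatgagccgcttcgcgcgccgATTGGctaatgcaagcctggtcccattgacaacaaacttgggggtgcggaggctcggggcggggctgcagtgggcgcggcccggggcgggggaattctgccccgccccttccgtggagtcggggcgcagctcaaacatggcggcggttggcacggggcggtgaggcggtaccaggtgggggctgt
Insig1 (chr5:28071162-28071461, plus strand): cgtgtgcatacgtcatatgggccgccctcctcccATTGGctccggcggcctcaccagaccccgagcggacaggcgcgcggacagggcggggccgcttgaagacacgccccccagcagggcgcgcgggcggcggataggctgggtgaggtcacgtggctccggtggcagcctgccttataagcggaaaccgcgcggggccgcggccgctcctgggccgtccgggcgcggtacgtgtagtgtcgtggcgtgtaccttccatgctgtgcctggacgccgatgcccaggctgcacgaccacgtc
Hmgcs1 (chr13:119690101-119690400, plus strand): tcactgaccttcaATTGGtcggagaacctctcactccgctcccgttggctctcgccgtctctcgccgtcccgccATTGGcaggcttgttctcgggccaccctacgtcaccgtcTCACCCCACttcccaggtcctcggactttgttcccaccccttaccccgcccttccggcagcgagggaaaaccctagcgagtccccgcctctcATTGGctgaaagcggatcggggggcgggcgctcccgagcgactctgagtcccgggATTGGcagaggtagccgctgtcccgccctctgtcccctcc
The TCACNCCAC match of Hmgcs1 begins at base -137 from the start. Counted by entry, CCAAT was found in 6 of the 8 entries of these genes, against 37.4% of the 32851 promoters of the same length in the table, and the Sp1 motif GGGCGG in 7 of 8, against 35.7%. The entries without CCAAT were 2 of the 3 of Dhcr7. TCACNCCAC was in 1 of 8, against 1.24% of all promoters. Of the other enzymes of the pathway, 11 of 14 had an entry, and of their 12 entries 10 held CCAAT, 10 held GGGCGG and 0 held TCACNCCAC. None of the 3 motifs contains another. A match describes these letters only and no site or cause.

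Deposited read counts summed to 3498860 to 6432517 per B16 library. Human libraries summed to 4191317 to 9216731 in MelJuSo, 6848609 to 9605776 in HT29, 6096437 to 8253298 in A549 and 5323668 to 7951961 in A375. Levels are given as CPM, read counts scaled to library size by TMM. Bulk RNA does not tell fewer cells of a kind apart from less RNA per cell. Ptpn2 stood at 8.23 to 16.4 CPM in B16 Ptpn2-null libraries, against 44.7 to 61.9 CPM in controls. In the human lines PTPN2 averaged 14.45 CPM in Ptpn2-null and 28.7 CPM in control cells of A549 under vehicle, 16.1 CPM in Ptpn2-null and 28.4 CPM in control cells of HT29, and 7.14 CPM in Ptpn2-null and 15.5 CPM in control cells of MelJuSo. Under IFNg it averaged 19.6 CPM in Ptpn2-null and 34.9 CPM in control cells of A549, 27.1 CPM in Ptpn2-null and 40 CPM in control cells of HT29, and 11.5 CPM in Ptpn2-null and 15.5 CPM in control cells of MelJuSo. In MelJuSo the log2 fold change of PTPN2 between genotypes was thus -0.45 under IFNg and -1.18 under vehicle, and the interaction was called (0.73 ± 0.204, adjusted p = 0.0025). PTPN2 conflicted with the labels of the A375 vehicle libraries: it stood at 24.1, 25.1 and 24.2 CPM in the libraries labelled Ptpn2ko and at 11.9 and 12.1 CPM in those labelled control. Under IFNg it stood at 11.3, 12.7 and 13.6 CPM in the libraries labelled Ptpn2ko and 22.8, 19.2 and 17.2 CPM in those labelled control. The summed level of 6 melanocyte markers was 3573 to 16620 CPM in B16 and 3219 to 4594 CPM in MelJuSo but 161 to 284 CPM in A375, where 2 of the 6 never exceeded 1 CPM. Epithelial markers summed to 3205 to 3898 CPM in A549 and 5320 to 6680 CPM in HT29. One HT29 control IFNg library carries a lung cell type label; its group was taken from title and cell line, and the colon markers CDX2 and VIL1 summed to 25.2 to 58.9 CPM over all HT29 libraries, against at most 2.25 CPM in A549. Leukocyte markers summed to at most 8.82 CPM in any library. In B16, 5 libraries varied over 1.5 times as much around their group means as the median library: Ptpn2-null TNFa replicate 1, Ptpn2-null IFNbIFNg replicate 3, Ptpn2-null IFNgTNFa replicate 1, and control IFNbIFNg replicates 2 and 3.

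Per kilobase of exon in B16 control vehicle cells, Insig1 had the highest level of the 8, at 158 CPM per kb, followed by Sqle at 96.5, Srebf2 at 74.6, Hmgcs1 at 73.3 and Dhcr7 at 68.6 CPM per kb. Lss stood at 20.9, Fdft1 at 8.62 and Idi1 at 2.52 CPM per kb. The neighbours Srebf2, Hmgcs1 and Dhcr7 are close in this order, and lengths are unions of GENCODE exons, so their places may depend on which transcript is used. Srebf2 (chromosome 15, 82147181 to 82205379, plus strand of mm10) and Sqle (chromosome 15, 59315077 to 59331192, plus) share a chromosome, as do Hmgcs1 (chromosome 13, 119690379 to 119708260, plus) and Idi1 (chromosome 13, 8885501 to 8892451, plus). Insig1 lies on chromosome 5 at 28071363 to 28078662 (plus), Lss on chromosome 10 at 76531588 to 76557138 (plus), Fdft1 on chromosome 14 at 63145150 to 63179578 (minus) and Dhcr7 on chromosome 7 at 143823145 to 143848410 (plus). Idi1 rested on few reads, with 4 to 22 counts per library under IFNgTNFa, so its values carry the widest errors.

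The first question was what each cytokine did to the pathway in control cells. IFNb alone went with lower levels of most of the 8 genes, while under IFNg alone and under TNFa calls went both ways. Insig1, the SREBP brake and target, stood at 202, 199 and 191 CPM under IFNb, 314, 334.5 and 323.5 CPM under IFNg and 289.6, 288.5 and 266 CPM under TNFa, against 422.5, 397 and 456 CPM under vehicle. Every cytokine library of Insig1 lay below every vehicle library, with those of IFNb lowest. Its log2 fold changes were -1.11 ± 0.061 for IFNb, -0.39 ± 0.059 for IFNg and -0.60 ± 0.06 for TNFa. Srebf2 had 263, 293 and 261 CPM under IFNb, 329, 346.5 and 328 CPM under IFNg and 359.6, 359 and 359 CPM under TNFa, against 372, 391 and 373.5 CPM under vehicle. IFNb again gave the lowest libraries, and all 3 treatments stayed below vehicle without overlap. Of all tested genes, 45.7% had no overlap with vehicle under IFNb, 51% under IFNg and 56.5% under TNFa. The change of Srebf2 under TNFa was small, at -0.076 ± 0.054, and was not called.

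Among the enzymes under IFNb, the fold changes of Hmgcs1, Sqle, Dhcr7, Lss and Fdft1 lay between -0.52 and -0.46 on the log2 scale, and Idi1 stood at -0.047 ± 0.219. In all, 7 of the 8 were called lower (edgeR's quasi-likelihood test, Benjamini-Hochberg adjusted p under 0.05), where 13.5% of all tested genes were, and their median was -0.47, against 0.022 over all genes. The median over all tested genes lay between -0.035 and 0.045 in every comparison. IFNg gave 1 call higher, Dhcr7 at 0.23, and 2 lower, Insig1 and Srebf2. This is a share close to the 37.9% of all genes called in either direction. TNFa gave 2 higher, Fdft1 at 0.61 and Hmgcs1 at 0.22, and 4 lower, Idi1 at -0.62, Insig1, Lss and Sqle, against a background of 47.7%. Fold changes for TNFa followed transcript length over all genes (Spearman's rho -0.472 over 11617 genes). Its part in the TNFa values was not tested beyond removing the trend, which left 5 of the 8 called. The same correlation was -0.463 for IFNbIFNg against IFNg alone and -0.337 for IFNgTNFa against IFNg alone, where 8 of the 8 were called with the trend removed in each, and 0.367 for the genotypes under vehicle, where 0 were.

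Genes of the pathway outside the 8 were then tested under the same treatments. Of 14 other enzymes, 12 fell and 0 rose under IFNb, beside 13.5% of all genes called lower, with a median log2 fold change of -0.39. Fdps, which makes farnesyl diphosphate, fell by 1.07 (SE 0.114, adjusted p = 8.8e-11) on the log2 scale, with Mvd at -0.77 and Nsdhl at -0.67. Under IFNg alone 4 rose and 0 fell, where 20% of all genes were called higher and 17.9% lower. The 4 were Ebp (0.59), Tm7sf2 (0.53), Hsd17b7 (0.34) and Cyp51 (0.23). TNFa raised 5, among them the mevalonate kinases Mvk (0.51) and Pmvk (0.42), and lowered 2, among them Hsd17b7, a sterol reductase (-0.48). These 7 of 14 under TNFa were a share close to the 47.7% of all genes called there. With the length trend removed, 4 of the 14 passed under TNFa, in place of 7.

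**Figure D1:**
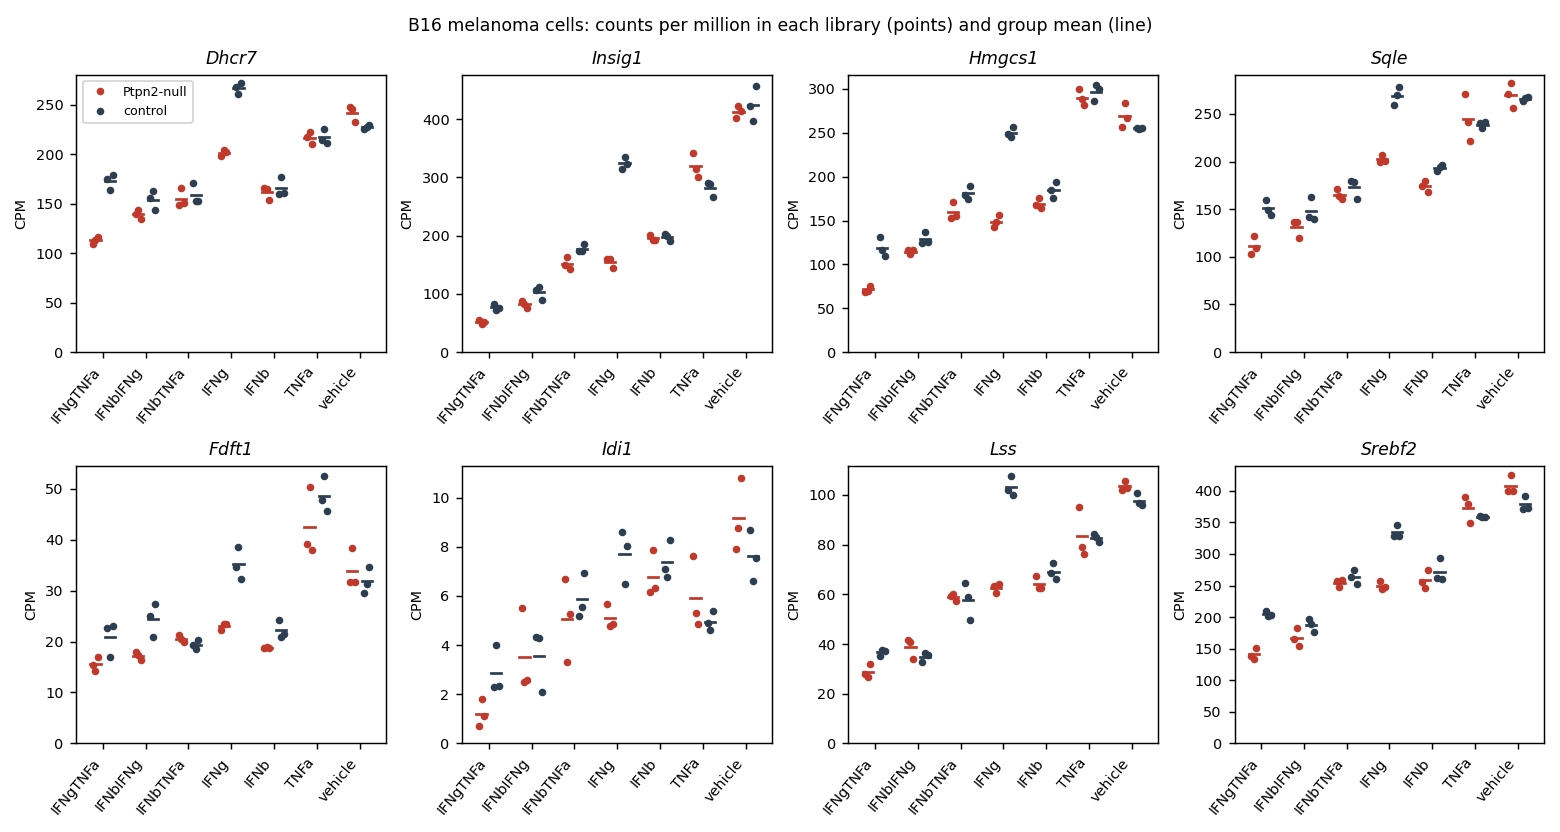
CPM, TMM-scaled counts (y axis, from 0) of the 8 genes in each B16 library by treatment (x axis), with Ptpn2-null libraries in red left of control libraries in dark blue; points are libraries and lines are group means. Insig1 ranges from 48.7 CPM in a Ptpn2-null IFNgTNFa library to 456 CPM in a control vehicle library, and under IFNg alone the Ptpn2-null points of all 8 genes lie below the control points.

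In control cells the pairs containing IFNg gave the lowest mean levels of Insig1, Hmgcs1, Sqle, Idi1, Lss and Srebf2, while Fdft1 was lowest under IFNbTNFa and Dhcr7 under IFNbIFNg. Insig1 stood at 82.2, 71.5 and 76.5 CPM under IFNgTNFa and 107, 111 and 89.7 CPM under IFNbIFNg, against 314, 334.5 and 323.5 CPM under IFNg alone. Its difference from IFNg alone was -2.08 ± 0.068 on the log2 scale with TNFa and -1.66 ± 0.067 with IFNb. Lss, the lanosterol cyclase, had 35.3, 37.5 and 37.25 CPM under IFNgTNFa and 32.6, 36.3 and 35.5 CPM under IFNbIFNg, against 102, 108 and 100 CPM under IFNg alone. No library of either pair reached the IFNg level for any of the 8 genes, while 66.4% of all tested genes had no overlap between IFNgTNFa and IFNg alone and 57.6% none between IFNbIFNg and IFNg alone. Idi1 gave 2.295, 4.003 and 2.35 CPM under IFNgTNFa, against 8.62, 6.48 and 8.04 CPM under IFNg alone, a difference of -1.40 ± 0.266.

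Against vehicle, all 8 were called lower under IFNgTNFa, where 33.3% of all genes were, and all 8 under IFNbIFNg, where 31.1% were. Their medians were -0.996 on the log2 scale under IFNgTNFa and -1.001 under IFNbIFNg, and the smallest change under IFNgTNFa was that of Dhcr7, -0.40. IFNbTNFa, the pair without IFNg, gave 7 lower against a background of 16.9%, with Insig1 at -1.26. Against the single cytokine, adding TNFa to IFNg and adding IFNb to IFNg each gave 8 lower, beside 30.2% and 28.1% of all genes. Adding TNFa to IFNb gave 1 lower, Lss at -0.24 ± 0.08, where 3.46% of genes were called lower, and this call was lost in DESeq2 and without control IFNbTNFa replicate 2 or 3 or control IFNb replicate 1 or 2. These comparisons share their vehicle or single-cytokine libraries.

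The other enzymes moved as follows under the pairs. Beyond IFNg alone, TNFa lowered 14 of 14 and IFNb lowered 13 of 14, beside 30.2% and 28.1% of all genes. The medians of the 14 were -0.84 and -0.81 on the log2 scale. Cyp51, the lanosterol demethylase, had 158, 143 and 144 CPM under IFNgTNFa, against 386, 386 and 394 CPM under IFNg alone. It fell by 1.39 (SE 0.05, adjusted p = 3.2e-30), with Acat2 at -1.34 and Sc4mol, the older symbol of Msmo1, at -1.19. Relative to vehicle, IFNgTNFa lowered 12 and raised 1, and IFNbIFNg lowered 11 and raised 1, Ebp in both. Of all genes, 33.3% were called lower and 36% higher under IFNgTNFa, and 31.1% lower and 34.3% higher under IFNbIFNg. IFNbTNFa lowered 13 and raised 0 relative to vehicle, beside 16.9% called lower, and lowered only Cyp51 (-0.31) relative to IFNb, beside 3.46%.

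Proliferation genes moved with part of this. The summed level of 10 proliferation markers was 712 to 753 CPM under IFNgTNFa and 2084 to 2292 CPM under IFNbIFNg in control cells, against 3722 to 3890 CPM under vehicle. Under IFNb alone, where 7 of the 8 sterol genes and 12 of 14 other enzymes were lower, it was 3680 to 3698 CPM. The melanocyte markers also moved: under IFNgTNFa 5 of 6 were called lower than under vehicle and 1 higher, with Tyr at -2.73, and their sum was 6642 to 6929 CPM under IFNgTNFa, 8946 to 9577 CPM under IFNbIFNg and 11210 to 11500 CPM under IFNb, against 15540 to 16190 CPM under vehicle. The part of proliferation or of melanocyte markers in the sterol gene values was not tested. Of the IFNbIFNg libraries, control replicates 2 and 3 are among those that stand apart, and without the 5 such libraries all 8 genes were still called lower than under vehicle and than under IFNg alone.

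The comparison of genotypes asked what the loss of Ptpn2 changed. Under IFNg alone all 8 genes were lower in Ptpn2-null than in control cells, while under vehicle, IFNb, TNFa and IFNbTNFa none was called. Insig1 had 160.4, 159 and 144 CPM in Ptpn2-null and 314, 334.5 and 323.5 CPM in control cells under IFNg, a log2 fold change of -1.07 ± 0.063. Hmgcs1 had 142, 148 and 156 CPM in Ptpn2-null and 249.2, 245 and 256 CPM in control cells, -0.75 ± 0.057. The 2 genotypes did not overlap for any of the 8 genes under IFNg, nor for 49.6% of all tested genes. Lss stood at 63.45, 60.4 and 64.2 CPM in Ptpn2-null and 102, 108 and 100 CPM in control cells. Srebf2 stood at 257, 245 and 247 CPM in Ptpn2-null and 329, 346.5 and 328 CPM in control cells. The smallest differences were those of Dhcr7 (-0.41) and Sqle (-0.41).

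In numbers, 8 of 8 were called lower under IFNg, beside 17.2% of all genes, and the median was -0.60 against -0.003 over all genes. IFNgTNFa also gave 8 lower, beside 20.8%, with Idi1 at -1.27 ± 0.405 and Hmgcs1 at -0.73 ± 0.065. Under IFNgTNFa, Hmgcs1 stood at 69.0, 69.7 and 75.8 CPM in Ptpn2-null and 131, 116 and 109.9 CPM in control cells. Here 7 of the 8 did not overlap between genotypes, beside 45.1% of all tested genes. IFNbIFNg gave 6 lower beside 19.2%, the farthest being Fdft1 at -0.50 ± 0.129, and Lss stood at 0.16 ± 0.096 and was not called. That count was 3 without the libraries that stand apart, 2 or 3 without Ptpn2-null replicate 1, 2 or 3 or control replicate 2, and 1 with only the compared groups in the fit.

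Vehicle, IFNb, TNFa and IFNbTNFa gave 0 calls among the 8, beside 3.07%, 0.554%, 0.938% and 0.597% of all genes called in either direction. At an unadjusted p under 0.05 there were 0 of the 8 under vehicle, 2 under IFNb, 1 under TNFa and 2 under IFNbTNFa, and DESeq2 gave 0 in each. Insig1 under vehicle had 402, 423 and 414 CPM in Ptpn2-null and 422.5, 397 and 456 CPM in control cells. Under IFNb it had 200.4, 193 and 192.5 CPM in Ptpn2-null and 202, 199 and 191 CPM in control cells. For Insig1 both pairs of groups overlap. Over the 8 genes, 4 did not overlap under vehicle and 3 did not under IFNb, beside 26.6% and 15.6% of all tested genes.

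Whether the response itself differed between genotypes was asked with the interaction, the cytokine response in Ptpn2-null cells minus that in control cells. For IFNg, 8 of the 8 were called lower, beside 12.4% of all genes, from -1.03 ± 0.086 for Insig1 and -0.86 ± 0.317 for Idi1 to -0.43 ± 0.085 for Sqle. The IFNg response of Hmgcs1 was -0.85 ± 0.056 in Ptpn2-null and -0.029 ± 0.054 in control cells. For IFNgTNFa again 8 were called lower, beside 15.3%. For IFNbIFNg 5 were, beside 8.74%, with 0 without the libraries that stand apart and 0 to 4 with any single library left out. IFNb, TNFa and IFNbTNFa gave 0 calls among the 8, beside 0.512%, 0.0341% and 0.913% of all genes. DESeq2 gave 0 in these 3 as well, and 2, 1 and 2 of the 8 had an unadjusted p under 0.05.

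Beyond the 8, the other enzymes gave the same comparison a test. Under IFNg, 11 of 14 fell and 2 rose in Ptpn2-null cells relative to control, beside 34.9% of all genes called in either direction. The median of the 14 was -0.51. Acat2, the cytosolic thiolase, fell by 1.139 (SE 0.103, adjusted p = 1.8e-13), with Mvd at -0.86 and Nsdhl at -0.765. Mvd, which makes isopentenyl diphosphate, stood at 22.1, 20.7 and 16.8 CPM in Ptpn2-null and 36.5, 36.9 and 33.8 CPM in control cells. Hsd17b7 (0.60) and Ebp (0.26), a 3-ketosteroid reductase and a sterol isomerase, rose. Under IFNgTNFa 10 fell and 2 rose, beside 41%, with Acat2 at -1.29 ± 0.145 and Cyp51 at -0.77 ± 0.055. Under IFNbIFNg 8 fell and 2 rose, Hsd17b7 at 0.905 ± 0.115 among them, beside 38.4%. Under vehicle, IFNb, TNFa and IFNbTNFa 0 of 14 passed, beside 3.07%, 0.554%, 0.938% and 0.597% of all genes.

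The interaction of the other enzymes followed the same treatments. For IFNg 9 were lower and 1 higher, for IFNgTNFa 9 lower and 1 higher, and for IFNbIFNg 6 lower and 1 higher. Of all genes, 21.5%, 26.3% and 15.4% were called there in either direction. IFNb and TNFa gave 0 and IFNbTNFa gave 1 lower, beside 0.512%, 0.0341% and 0.913%. That 1 call was lost with most single libraries left out. Acat2 stood at -1.13 ± 0.136 for IFNg (adjusted p = 4.1e-09). Proliferation markers also differed by genotype under the treatments with IFNg: their sum was 1737 to 1830 CPM in Ptpn2-null and 2828 to 2955 CPM in control cells under IFNg, and 262 to 284 CPM in Ptpn2-null and 712 to 753 CPM in control cells under IFNgTNFa. Of the 6 melanocyte markers 5 were called lower in Ptpn2-null cells under IFNg, with Tyr at -1.30, Pmel at -1.08 and Mitf at -0.82. Their sum was 7798 to 8169 CPM in Ptpn2-null and 12790 to 13180 CPM in control cells under IFNg, and 3573 to 3892 CPM in Ptpn2-null and 6642 to 6929 CPM in control cells under IFNgTNFa. The part of either marker list in the sterol gene differences was not tested.

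**Figure D2:**
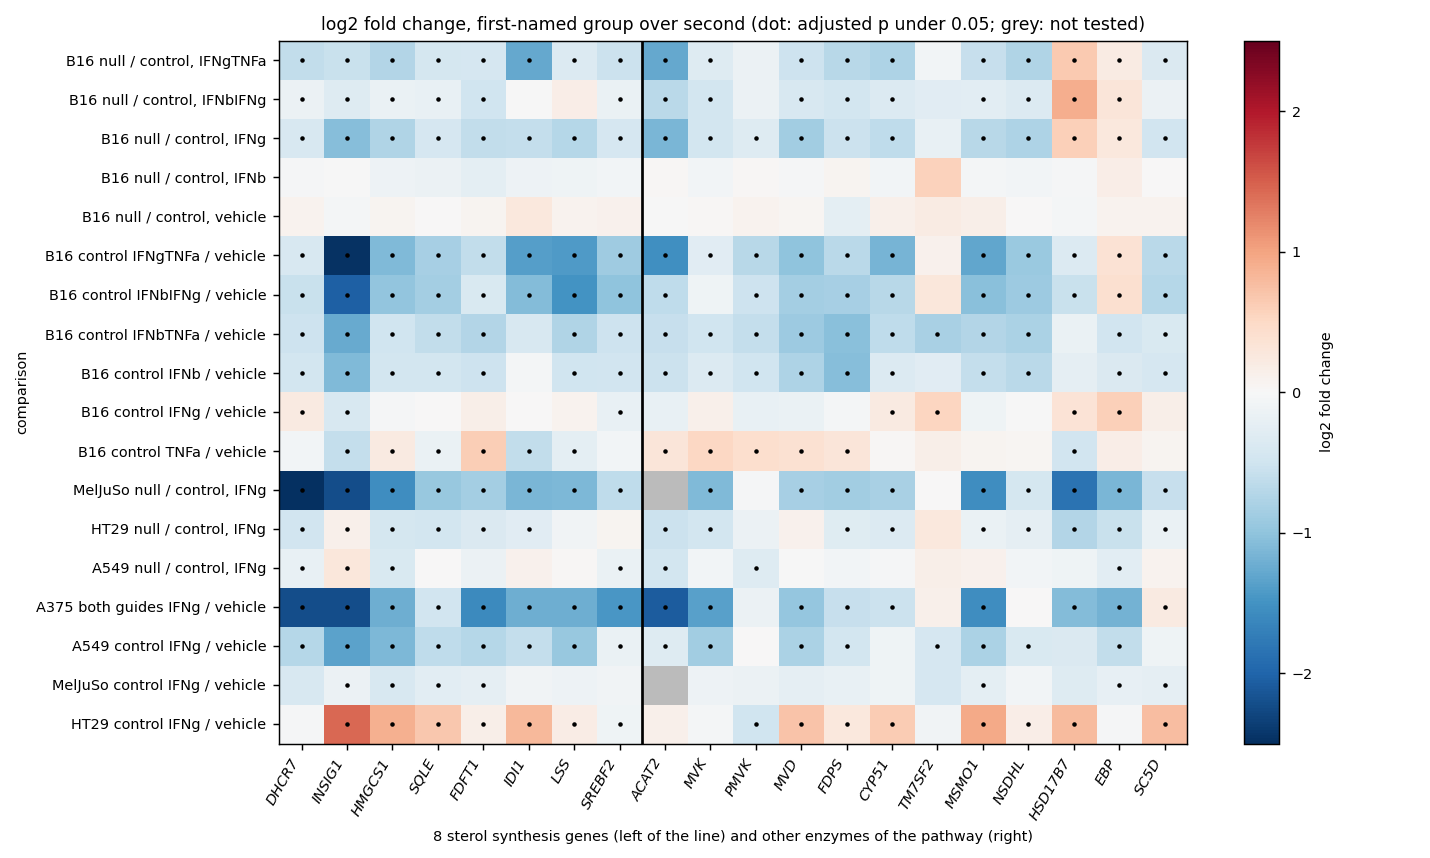
Log2 fold change (colour) of the 8 genes (left of the line) and 12 of the other enzymes (right) in 18 comparisons (rows), the first-named group over the second; dots mark an adjusted p under 0.05 and grey marks genes not tested. Mostly blue are the rows of B16 pairs with IFNg, of B16 and MelJuSo Ptpn2-null cells under IFNg, of A375, and of A549 control IFNg over vehicle. So are the rows of B16 control IFNb and IFNbTNFa over vehicle, where all values lie below 0. The row of HT29 control IFNg over vehicle is mostly red, with INSIG1 at 1.43. In the row of A549 Ptpn2-null over control under IFNg the 8 genes are mixed, with INSIG1 at 0.28 and HMGCS1 at -0.39.

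**Figure D3:**
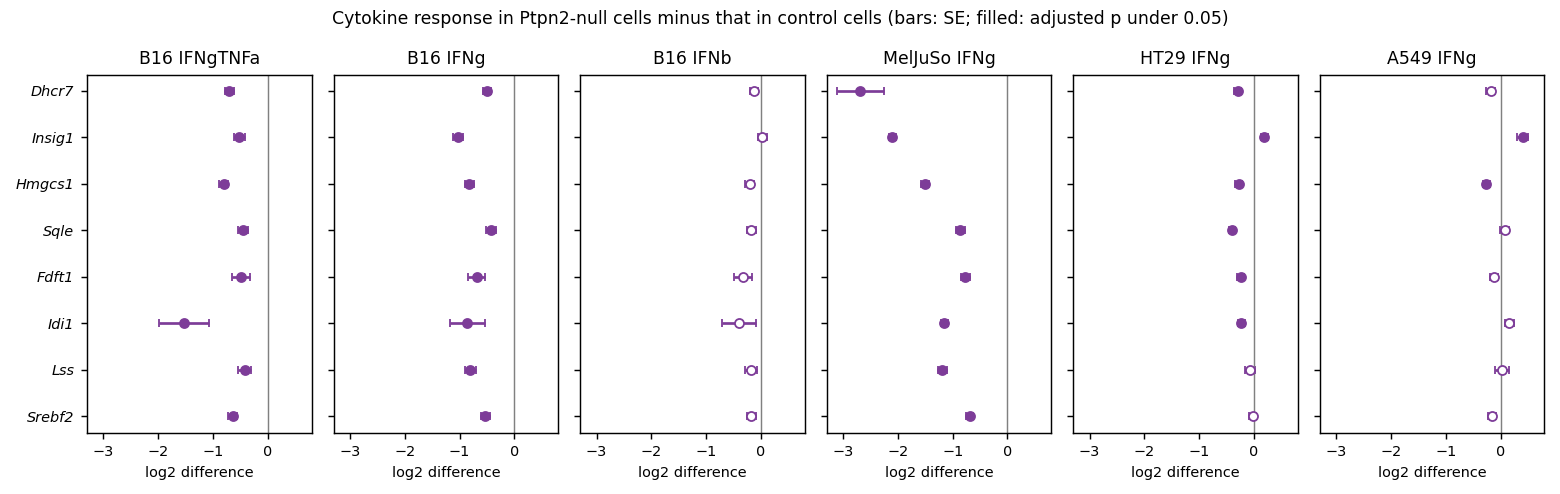
Response in Ptpn2-null cells minus response in control cells (x axis, log2 difference, bars are the standard error) for the 8 genes in 6 comparisons; filled points have an adjusted p under 0.05. All 8 points are filled and below 0 for IFNgTNFa and IFNg in B16 and for IFNg in MelJuSo, and none is filled for IFNb in B16.

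The human lines were asked the same 2 questions with IFNg alone, and they did not respond alike. In A375 the 8 genes were lower under IFNg, in A549 they were lower, in MelJuSo control cells they moved little, and in HT29 most were higher. A375 responses are means over both guides, since the vehicle labels there conflict with PTPN2. DHCR7 had 22.7, 22.0 and 20.1 CPM in the A375 IFNg libraries labelled Ptpn2ko and 21.8, 21.8 and 23.1 CPM in those labelled control. Under vehicle it had 96.0, 94.8 and 102 CPM in those labelled Ptpn2ko and 109 and 101 CPM in those labelled control. No IFNg library came near a vehicle library, whichever guide it carried. The pooled log2 fold change of DHCR7 was -2.22 ± 0.053, that of INSIG1 -2.21 ± 0.049, of FDFT1 -1.59 ± 0.038 and of SREBF2 -1.46 ± 0.035. The smallest change was that of SQLE, -0.485. All 8 were called lower, where 35.6% of tested genes were.

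The test on other enzymes in A375 gave 10 of 14 lower and 1 higher with a median of -0.82. Of all genes, 35.6% were called lower and 36.6% higher. ACAT2 fell by 2.08 (SE 0.089, adjusted p = 4.6e-58), with SC4MOL at -1.55 and MVK at -1.35. Between the libraries labelled Ptpn2ko and control, 1 of the 8 was called lower under vehicle, HMGCS1 at -0.26, beside 8.73% of all genes, a call lost without control vehicle replicate 2. Under IFNg SQLE (-0.50) was lower and SREBF2 (0.18) higher, beside 50.8% of all genes in either direction. No direction is drawn from these 2 comparisons, as the labels of the vehicle libraries conflict with PTPN2, although those of the IFNg libraries go with it. The proliferation sum was 1096 to 1430 CPM in IFNg libraries and 2654 to 2909 CPM in vehicle libraries.

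In A549 control cells HMGCS1 had 147 and 139.8 CPM under IFNg and 313.5 and 312 CPM under vehicle. INSIG1 had 43.9 and 48.5 CPM under IFNg and 109 and 123 CPM under vehicle. IFNg and vehicle libraries did not overlap for any of the 8, nor, with 2 libraries a group, for 72% of all tested genes. All 8 were called lower, where 23.7% of tested genes were, from -1.33 ± 0.071 for INSIG1 to -0.17 ± 0.053 for SREBF2. Of the other enzymes 10 of 14 fell and 0 rose, with MVK at -0.88 (SE 0.147, adjusted p = 1.5e-08) and MVD at -0.80. Between genotypes under vehicle 0 of the 8 were called, beside 2.95%, with 2 at an unadjusted p under 0.05 and 0 in DESeq2. Under IFNg 3 were lower and 1 higher in Ptpn2-null cells, beside 24.3%. HMGCS1 stood at 105 and 115 CPM in Ptpn2-null and 147 and 139.8 CPM in control cells. INSIG1, the one higher, stood at 57.7 and 53.9 CPM in Ptpn2-null and 43.9 and 48.5 CPM in control cells. The interaction called INSIG1 higher (0.40 ± 0.101) and HMGCS1 lower (-0.26 ± 0.067), beside 11.3%, and 0 of the 8 were called there in DESeq2 or without control IFNg replicate 1. The IFNg count of 4 was 1 in DESeq2, and 1 or 2 without replicate 1 of either genotype. Of the other enzymes, 4 fell under IFNg in Ptpn2-null cells, ACAT2 at -0.46 (adjusted p = 0.00054) among them, and 3 in the interaction. The count of 4 was 2 in DESeq2 and 1 to 3 with single libraries left out, and the count of 3 was 1 in DESeq2. The proliferation sum under IFNg was 2047 to 2054 CPM in Ptpn2-null and 2608 to 2707 CPM in control cells, against 3135 to 3143 CPM in Ptpn2-null and 3390 to 3537 CPM in control cells under vehicle.

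HT29 went the other way. INSIG1 had 455 and 460.2 CPM under IFNg and 162 and 177 CPM under vehicle in control cells. HMGCS1 had 519.7 and 522 CPM under IFNg and 287 and 273.5 CPM under vehicle. SQLE had 1528 and 1527 CPM under IFNg and 932 and 985 CPM under vehicle. In each of these 3 genes both IFNg libraries lay above both vehicle libraries, also the one with the lung label. With 2 libraries a group, 79.3% of all tested genes had no overlap here. Log2 fold changes were 1.43 ± 0.045 for INSIG1, 0.895 ± 0.042 for HMGCS1, 0.81 ± 0.046 for IDI1 and 0.67 ± 0.035 for SQLE. SREBF2 itself had 220.1 and 212.5 CPM under IFNg and 230.2 and 238 CPM under vehicle and was called lower, at -0.11. DHCR7 (-0.026 ± 0.043) was not called. In all, 6 were higher and 1 lower, where 59.4% of all genes were called in either direction.

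Of the other enzymes in HT29, 9 of 14 rose and 1 fell under IFNg, beside 30.8% of all genes called higher and 28.7% lower. SC4MOL rose by 0.94 (SE 0.055, adjusted p = 1.4e-22), with SC5DL at 0.77 and MVD at 0.71, and PMVK (-0.49) fell. The proliferation sum was 2476 to 2491 CPM under IFNg and 3471 to 3529 CPM under vehicle. In A375, A549 and HT29 the part of proliferation in the sterol gene values was not tested. A comparison added after the data were seen set the responses of control cells against each other in 1 fit of 3 lines. The IFNg response in HT29 exceeded that in A549 in 7 of the 8 genes, beside 19.1% of all genes called higher, and that in MelJuSo in 6 of the 8, beside 18.3%. INSIG1 differed by 2.72 ± 0.093 from A549 and by 1.56 ± 0.062 from MelJuSo, while SREBF2 differed by 0.014 ± 0.075 and -0.053 ± 0.062, neither called. Among the other enzymes 12 were higher and 1 lower than in A549, SC4MOL at 1.70 ± 0.092 (adjusted p = 1.7e-46).

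Between genotypes in HT29, 3 of the 8 were lower in Ptpn2-null cells under vehicle, DHCR7 at -0.185 being farthest, beside 8.66% of all genes, a count of 0 without Ptpn2-null replicate 1 and of 1 without control replicate 1 or 2. Under IFNg 5 were lower and 1 higher, beside 41.9%. SQLE had 1100 and 1118 CPM in Ptpn2-null and 1528 and 1527 CPM in control cells. HMGCS1 had 399 and 369 CPM in Ptpn2-null and 519.7 and 522 CPM in control cells. INSIG1, the one gene of the 8 called higher, had 504 and 489.9 CPM in Ptpn2-null and 455 and 460.2 CPM in control cells. Levels under IFNg in Ptpn2-null cells still lay above vehicle for INSIG1, HMGCS1 and SQLE, while 82.5% of all tested genes had no overlap between these groups. The interaction called 5 lower, SQLE at -0.40 ± 0.05 the farthest, and INSIG1 higher at 0.19 ± 0.063, beside 19.1%. Of the other enzymes 11 of 14 fell in Ptpn2-null cells under IFNg, HSD17B7 at -0.73 (adjusted p = 0.0058), a count of 6 in DESeq2. The interaction count of 3 was 0 in DESeq2 and 0 or 1 without either Ptpn2-null vehicle library, control vehicle replicate 1 or control IFNg replicate 1, the library with the lung label. The proliferation sum under IFNg was 1479 to 1553 CPM in Ptpn2-null and 2476 to 2491 CPM in control cells.

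In MelJuSo the genotypes lay farther apart under IFNg than in B16, with a median over the 8 genes of -1.13 against -0.60, a difference between lines that was not tested. INSIG1 had 149.7, 117 and 136 CPM in Ptpn2-null and 631, 616 and 636 CPM in control cells under IFNg, against 640.3, 629.6 and 643 CPM in Ptpn2-null and 730.3, 673 and 683 CPM in control cells under vehicle. Only the Ptpn2-null IFNg libraries lay far from the rest. HMGCS1 had 36.2, 34.4 and 36.6 CPM in Ptpn2-null and 105, 98.03 and 109.7 CPM in control cells under IFNg. SREBF2 had 151, 149 and 148 CPM in Ptpn2-null and 244, 235 and 217 CPM in control cells. The log2 fold changes between genotypes were -2.23 ± 0.046 for INSIG1, -1.545 ± 0.063 for HMGCS1 and -0.64 ± 0.044 for SREBF2. DHCR7 is nearly silent in this line, with 5, 2 and 6 counts in Ptpn2-null and 34, 27 and 32 counts in control libraries under IFNg, a fold change of -2.75 ± 0.356 that rests on few reads.

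All 8 were called lower in Ptpn2-null than in control MelJuSo cells under IFNg, beside 25.7% of all genes, and all 8 in the interaction, beside 18.8%, with INSIG1 at -2.10 ± 0.06. Under vehicle 0 were, beside 1.64%, with 1 at an unadjusted p under 0.05 and 0 in DESeq2. In control cells IFNg gave 4 lower, beside 5.18%, of which HMGCS1 moved most at -0.40 ± 0.049 and INSIG1 stood at -0.15 ± 0.038. Of 13 other enzymes tested, 11 fell and 0 rose in Ptpn2-null cells under IFNg, with a median of -0.88: HSD17B7 at -1.84 (SE 0.278, adjusted p = 1.1e-08), SC4MOL at -1.56 and EBP at -1.14. In the interaction 11 were also lower, SC4MOL at -1.50 (adjusted p = 1.1e-33). Proliferation markers summed to 1420 to 1469 CPM in Ptpn2-null and 2066 to 2273 CPM in control cells under IFNg. The melanocyte markers summed to 3219 to 3514 CPM in Ptpn2-null and 4390 to 4594 CPM in control cells under IFNg, with 6 of 6 called lower in Ptpn2-null cells, DCT at -1.875. The part of these markers was not tested.

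**Figure D4:**
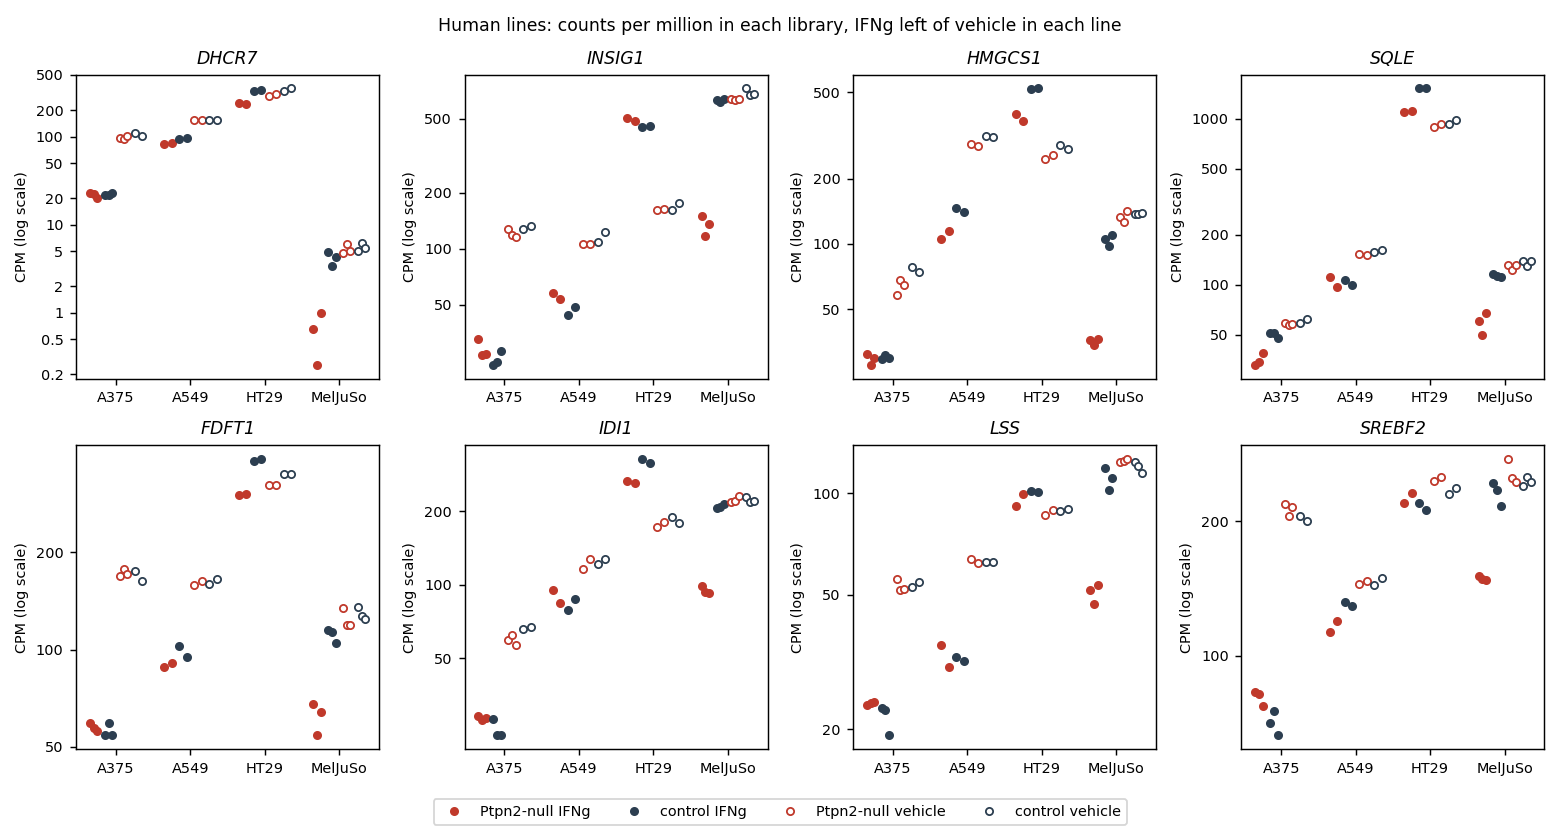
CPM, TMM-scaled counts (y axis, log scale) of the 8 genes in each library of the 4 human lines (x axis); filled points are IFNg and open points vehicle, red is the group labelled Ptpn2ko and dark blue control. INSIG1 in HT29 lies at 455 to 504 CPM under IFNg and 161 to 177 CPM under vehicle, and in MelJuSo the 3 filled red points lie at 117 to 150 CPM, below all others of that line.

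Regulators and uptake genes of the pathway moved with the enzymes only in part. Stard4, a sterol carrier, is a known target of SREBP-2. It fell by 1.97 on the log2 scale under IFNgTNFa relative to IFNg alone (adjusted p = 2.5e-19). Ptpn2-null B16 cells under IFNg were lower than control in Stard4, at -0.62. Mylip, which encodes a ubiquitin ligase that limits sterol uptake, rose by 1.43 under IFNgTNFa and 1.51 under IFNbIFNg relative to vehicle. Npc2, a lysosomal sterol carrier, was higher in Ptpn2-null cells by 0.59 under IFNg and 1.035 under IFNgTNFa. Of the 11 genes of this list, 5 fell and 2 rose between B16 genotypes under IFNg, where 34.9% of all genes were called.

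In the human lines STARD4 fell by 2.41 under IFNg in A375. In HT29 control cells STARD4 rose by 1.90 (adjusted p = 1.3e-28), with NPC1, a lysosomal sterol transporter, at 1.305. MelJuSo Ptpn2-null cells under IFNg were lower than control in STARD4, at -1.03. In A549 NPC1 was higher in Ptpn2-null cells under IFNg, by 1.095. SREBF1, which encodes the factor that acts mainly on fatty acid genes, fell by 1.26 in A375, and stood at -0.37 in MelJuSo Ptpn2-null against control cells under IFNg.

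Fatty acid synthesis genes were counted in the same comparisons. In Ptpn2-null B16 cells under IFNg 9 of 10 fell and 1 rose, beside 17.2% of all genes called lower, with Fasn, the fatty acid synthase, at -0.685 ± 0.066 and the elongase Elovl6 at -0.65 ± 0.07. Adding TNFa to IFNg lowered 10 of 10, beside 30.2%, with Scd1, a desaturase, at -0.94. MelJuSo Ptpn2-null cells under IFNg had 8 of 8 tested genes lower, beside 25.7%, FASN at -1.15 (adjusted p = 1e-54). A375 under IFNg had 8 of 9 lower and 1 higher, FASN at -1.73, and A549 control cells had 7 of 9 lower, beside 35.6% of all genes in A375 and 23.7% in A549. HT29 control cells had 3 of 8 higher and 1 lower, a smaller share than the 59.4% of all genes called there, with ACSS2, which makes acetyl-CoA from acetate, at 2.42 ± 0.099.

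Of the efflux and storage genes, Abca1, a sterol exporter, rose by 0.83 under IFNb and 0.75 under IFNgTNFa in B16 control cells, and Apoe fell by 0.83 under IFNgTNFa. Under IFNg, Abca1 was called higher in Ptpn2-null than in control cells in B16, at 0.50 ± 0.133 (adjusted p = 0.0024), and as ABCA1 in A549 at 1.01 ± 0.066, in HT29 at 2.44 ± 0.11 and in MelJuSo at 0.38 ± 0.053. In A375 under IFNg it was called lower, at -0.26, in the libraries labelled Ptpn2ko against those labelled control. PTPN2 goes with the labels of these IFNg libraries and conflicts with those of the A375 vehicle libraries. Under vehicle ABCA1 was also called higher in Ptpn2-null cells of HT29 (1.03 ± 0.134) and A549 (0.31 ± 0.091). It was not called under vehicle in B16 (0.06 ± 0.15) or MelJuSo (-0.025 ± 0.057). The interaction for IFNg was called higher in A549 (0.70 ± 0.114), HT29 (1.415 ± 0.187) and MelJuSo (0.41 ± 0.078), but not in B16 (0.44 ± 0.201). In HT29 ABCA1 stood at 75.7 and 75.5 CPM in Ptpn2-null and 11.5 and 16.3 CPM in control cells under IFNg. SOAT1, which esterifies cholesterol for storage, was low in HT29 control cells without IFNg, with 9.87 and 8.41 CPM under IFNg and 0.531 and 0.7275 CPM under vehicle, a log2 fold change of 3.82 ± 0.373. Ch25h makes 25-hydroxycholesterol, an oxysterol that restrains SREBP processing and whose gene macrophages raise on interferon. It had 0 counts in every B16, A375 and MelJuSo library, 0 to 3 in A549 and 0 to 5 in HT29.

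Over the 42 B16 libraries the 8 genes varied together. The correlation of each with the mean of the other 7 was 0.975 for Insig1, 0.974 for Sqle and Srebf2, 0.965 for Hmgcs1, 0.961 for Lss, 0.894 for Dhcr7, 0.784 for Idi1 and 0.766 for Fdft1 (Pearson's r on log2 CPM, a description of libraries that share groups and depth). Of the other enzymes, Sc4mol (0.979), Cyp51 (0.967) and Nsdhl (0.96) were closest to the mean of the 8, and Tm7sf2 (0.092), Hsd17b7 (-0.111) and Ebp (-0.291) were farthest. Outside the lists, the tested genes most like that mean were Gga2 (0.964), Tram1 (0.953), Aldh9a1 (0.947), Pdk1 (0.944) and Gcat (0.941).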

How the data were processed

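Reads came from directional, mRNA-captured libraries sequenced paired-end at 37 bases, per the labels' protocols. The builds mm10 and hg19 and the tools HTSeq 0.6.1p1, Bowtie2 2.2.4, Trimmomatic 0.33, bcl2fastq 2.17.1.14 and DESeq2 are named in the submitters' processing notes. Annotation and strand setting: not given in the sources used here. The authors deposited raw read counts per gene for 81 libraries. From these, edgeR 4.0.16 in R 4.3.3 was run per line: genes were kept by filterByExpr, leaving 12271 in MelJuSo, 12555 in HT29, 13172 in A549, 13410 in A375 and 11726 in B16, libraries were scaled by TMM, and 1 mean per group was fitted with robust quasi-likelihood dispersions. Contrasts of those means were adjusted over all tested genes of the line by Benjamini-Hochberg, with a threshold of 0.05, and SE is the log2 fold change over the square root of F. Groups come from the labels, and scripts were tested on simulated data. No pair of replicates agreed within sampling noise, with a chi-square per degree of freedom from 1.153 in A375 to 6.62 in B16. Over so many genes a small excess suffices, so this cannot tell separate cultures from separate libraries of 1 culture. Each library was counted once. Fold changes of genes with few reads carry wide errors, since depth sets their precision.

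The 8 genes and all lists were chosen with earlier results of these data known. Named beyond them are, per list and comparison, up to 4 of the called genes with the largest log2 fold changes. Outside that rule, Ebp, Hsd17b7 and PMVK were named as the few that moved against their list, and Ch25h for its counts, after their values were seen. Abca1 was followed across lines and is also given in comparisons where it was not called. Alternatives were RLE size factors, no filter, DESeq2 1.42.0, a replicate block, only the compared groups, a removed transcript length trend in B16, leaving out each library and, added after seeing the data, leaving out 5 B16 libraries. Human coordinates and promoters were not used here, and single values of 3 genes in the lists are not reported here.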

Additional observations from a re-analysis of the deposited data

Results flagged for a closer look

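In these results the response itself differed, by an interaction term, between Ptpn2-null and control cells or between lines. Each count of other sterol synthesis enzymes is given with the share of all tested genes called in the same comparison. Between B16 genotypes, 10 of 14 enzymes differed in the IFNg response (21.5% of all genes), 10 in the IFNgTNFa response (26.3%) and 7 in the IFNbIFNg response (15.4%). The IFNbTNFa response differed in 1 (0.913%), and in 0 with RLE size factors or without the filter on low counts. In MelJuSo 11 of 13 differed between genotypes (35.5%). In A549 3 of 14 did (11.3%), and 1 in DESeq2. In HT29 3 of 14 did, a share close to the 19.1% of all genes, and 0 in DESeq2. The IFNg response of control cells differed between HT29 and A549 in 13 enzymes (40.5%) and between HT29 and MelJuSo in 8 (37.3%).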

How the results depend on the processing

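Counts of calls among the 8 genes stayed within 1.5 times their value in 460 of 511 alternatives over 39 comparisons, counts among the other enzymes in 466 of 511, and no single log2 fold change reversed. The comparisons that moved by more are given here as counts of calls, and the cause was not tested. Precision was limited by depth for Idi1 in B16 and DHCR7 in MelJuSo, which had few reads.

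In B16, the genotype difference under IFNbIFNg gave 6 of the 8 genes, 2 with RLE size factors, without the filter or in DESeq2, 1 with only the compared groups, 3 without the 5 libraries that stand apart and 2 to 6 with single libraries left out. The IFNbIFNg interaction gave 5 of the 8, 2 with RLE or DESeq2, 1 without the filter or with only the compared groups, 0 without the 5 libraries and 0 to 4 with single libraries left out. TNFa added to IFNb gave 1 of the 8 and 1 enzyme: the 8 gave 0 without the filter or in DESeq2, 3 with only the compared groups or without the 5 libraries, and 0 to 1 with single libraries left out, and the enzymes gave 2 without the 5 libraries and 1 to 2 with single libraries left out. The genotype difference and the interaction under IFNbTNFa gave 0 of the 8, and 1 with only the compared groups or without the 5 libraries. The IFNbTNFa interaction of the enzymes gave 1, and 0 with RLE, without the filter or, as 0 to 1, with single libraries left out. With only the compared groups, the enzymes gave 7 in place of 4 for IFNg in control cells, 1 in place of 0 for the IFNb interaction, and 3 in place of 0 for the vehicle genotypes, where removing the length trend or the 5 libraries gave 1. Removing the length trend gave 4 in place of 7 for TNFa.

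In A375 the labelled genotypes gave 5 enzymes under IFNg, 3 without the filter, 1 in DESeq2 and 1 to 5 with single libraries left out. Under vehicle they gave 1 of the 8 (0 to 1 with single libraries left out) and 2 enzymes (1 in DESeq2, 1 to 2 with single libraries left out). In A549 DESeq2 gave 0 of the 8 in the interaction, in place of 2 (0 to 2 with single libraries left out), 1 enzyme in place of 3 (1 to 3), 1 of the 8 between genotypes under IFNg in place of 4 (1 to 5) and 2 enzymes in place of 4 (1 to 3). The A549 vehicle genotypes gave 0 of the 8, and 1 with only the compared groups. In HT29 the interaction gave 3 enzymes, 1 with RLE, 0 in DESeq2 and 0 to 4 with single libraries left out. HT29 genotypes gave 11 enzymes under IFNg, 6 in DESeq2, and 3 of the 8 under vehicle, 0 to 2 with single libraries left out. The MelJuSo vehicle genotypes gave 0 of the 8 and 0 enzymes, with 1 of the 8 without the filter and 1 of each with only the compared groups.

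Replicate numbers are shared between groups. In B16, A375 and MelJuSo, same-numbered samples did not deviate together in every pair. In A549 and HT29 every such pair correlated above 0, but the lowest values were only 0.003 and 0.022. A replicate block was run as an alternative, and same-numbered samples were not taken as pairs in the main fit of any line. The mean correlation of their deviations was 0.039 in MelJuSo, 0.059 in HT29, 0.022 in A549, 0.007 in A375 and -0.002 in B16. The libraries that correlated best with their own number were 12 of 12 in MelJuSo, 8 of 8 in HT29, 8 of 8 in A549, 6 of 11 in A375 and 13 of 42 in B16, a hint from the data and not the design. With a replicate block, the 8 genes gave 1 call in place of 0 for the vehicle genotypes of A549 and of MelJuSo, and the enzymes gave 5 in place of 3 for the HT29 interaction. The block moved none of the other counts among the 8 genes or the enzymes by more than 1.5 times. The A375 vehicle genotypes gave 3 enzymes in place of 2, which lies at that limit.

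Counts over all genes moved by more than 1.5 times in these comparisons, given with their lowest and highest alternative. For the B16 interactions they were 60 (31 to 591) for IFNb, 4 (0 to 21) for TNFa, 1810 (1092 to 2689) for IFNbIFNg and 107 (33 to 582) for IFNbTNFa. For the B16 genotypes they were 360 (129 to 1357) under vehicle, 65 (35 to 156) under IFNb, 110 (36 to 310) under TNFa, 4504 (2164 to 5110) under IFNbIFNg and 70 (48 to 124) under IFNbTNFa. In A549 they were 6272 (4094 to 6326) for IFNg in control cells, 1486 (511 to 1559) for the interaction, 388 (91 to 448) for the vehicle genotypes and 3197 (1484 to 3257) for the IFNg genotypes. In HT29 they were 2403 (1249 to 2525) for the interaction, 2653 (1339 to 3095) for the vehicle genotypes and 5258 (3468 to 5409) for the IFNg genotypes. They were 2831 (1594 to 2867) for the A375 vehicle genotypes, and in MelJuSo 1412 (846 to 1572) for IFNg in control cells and 201 (97 to 366) for the vehicle genotypes.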
